A study of Arabidopsis thaliana with 15 samples.

Results

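SMAX1, SMXL2, SMXL3, SMXL4, SMXL5 and KUF1 were followed across all libraries of a seedling time course with the synthetic strigolactone GR244DO. They were picked by gene identifier (AT5G57710, AT4G30350, AT3G52490, AT4G29920, AT5G57130 and AT1G31350) and are 6 of the 32678 named genes in the deposited table. All 6 passed the filter on low values, which 19155 genes passed. The study measured RNA by sequencing in whole seedlings of wild-type Arabidopsis thaliana, ecotype Col, 10 days old. All seedlings had grown on plates of medium with sucrose in long days of 16 h light and 8 h dark, and were then balanced for 2 h in liquid medium. There were 5 groups of 3 libraries each. The solvent groups were taken at 0 h, 2 h and 4 h, and the treated groups after 2 h or 4 h with 5 µM GR244DO, the form of GR24 with the configuration of 4-deoxyorobanchol. The seedlings carried no transgene or mutation by their labels, and the solvent is not named in the labels. Root and shoot genes were both present, since 7 of 7 root markers and 7 of 7 shoot markers reached 1 RPKM.

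SMAX1 and SMXL2 encode repressors of the signalling pathway that starts at the receptor KAI2, which is known for its part in seed germination and seedling growth in light. The receptor works with the F-box protein MAX2, which marks these repressors for destruction, and the strigolactone receptor D14 works with MAX2 in the same way on the related repressors SMXL6, SMXL7 and SMXL8. SMXL3, SMXL4 and SMXL5 belong to the same family but act in the formation of the phloem, the tissue that carries sugars, and are not targets of MAX2. KUF1 (KAR-UP F-BOX 1) encodes an F-box protein whose transcript responds to KAI2 signalling and which in turn restrains that pathway.

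Values are RPKM, which scales the reads of a gene by its length in kilobases and by each 1000000 reads that fell on genes. The authors' values corresponded to whole numbers of reads, and depths were 24.4 to 37.4 M reads on genes (1 M is 1000000). Behind single values stood 4671 to 9928 reads for SMAX1, 783 to 2201 for SMXL2 and 692 to 1583 for SMXL5. They were 306 to 1425 for KUF1, 142 to 338 for SMXL3 and 148 to 289 for SMXL4, so the last pair has the largest counting error of the 6. Differences are between values of log2(RPKM + 1), a scale on which changes of low genes look smaller than they are, and come from limma over all 19155 genes with Benjamini-Hochberg adjustment. A gene counts as called at adjusted p under 0.05. The labels do not say that the replicates were separate cultures, so the p-values speak only to the variation among these libraries, and part or all of it may be technical. Replicates 1 and 3 of solvent at 4 h, 2 and 3 of solvent at 2 h, and 1 and 2 of GR244DO at 4 h were nearly identical. A chi-square over their recovered reads gave 1.12, 1.71 and 1.84 per degree of freedom, against 3.72 to 18.6 for the other 12 pairs. They were counted as separate libraries, and calls that ended when each pair was averaged are given with the results.

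In the TAIR10.1 annotation SMAX1 lies on chromosome 5 at 23384255 to 23388465 on the plus strand with 4 exons, and SMXL2 on chromosome 4 at 14847583 to 14851248 on the plus strand with 3 exons. SMXL3 lies on chromosome 3 at 19455505 to 19459203 on the minus strand, SMXL4 on chromosome 4 at 14632413 to 14636101 on the minus strand, and SMXL5 on chromosome 5 at 23144947 to 23149615 on the plus strand. KUF1 is a gene of 1 exon on chromosome 1 at 11221267 to 11222827 on the minus strand. No other annotated gene overlaps any of them, and no stretch of 50 bases of their exons occurs elsewhere in that genome. SMAX1 and SMXL2 share 65.6% of aligned coding bases and SMXL4 and SMXL5 share 60.5%. The other 8 pairs of repressor genes share 45.6% to 50.7%.

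The upstream sequences of SMXL2 and KUF1 are shown because these genes had the largest responses of the 6 and because their last 250 bases before the annotated start hold an identical run of 13 bases, ATTCTCTATAGCC, on the strand of the gene. The letters are from the RefSeq genome of build TAIR10.1, 5′ to 3′ on the strand of each gene, with the shared run in capitals. The SMXL2 window is chr4:14847333-14847582 on the plus strand, and the KUF1 window is chr1:11222828-11223077 on the minus strand.
SMXL2: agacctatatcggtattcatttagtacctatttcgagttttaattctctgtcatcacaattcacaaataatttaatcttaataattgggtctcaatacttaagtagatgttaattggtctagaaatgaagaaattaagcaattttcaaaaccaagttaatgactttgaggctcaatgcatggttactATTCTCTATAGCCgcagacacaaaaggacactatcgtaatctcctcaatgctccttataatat
KUF1: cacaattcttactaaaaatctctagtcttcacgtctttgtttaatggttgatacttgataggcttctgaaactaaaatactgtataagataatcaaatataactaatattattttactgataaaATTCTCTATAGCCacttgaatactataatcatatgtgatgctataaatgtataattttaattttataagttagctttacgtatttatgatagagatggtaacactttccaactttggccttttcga
The run stands 63 to 51 bases before the start of SMXL2 and 126 to 114 bases before that of KUF1. Of 27443 protein-coding genes, 2 hold it on either strand in the 250 bases before their start, namely these, and the count was also 2 over 1000 bases. The run was picked as one that these 2 windows share, so the count could not be below 2. How often other pairs of genes share a run of that length was not counted. Among the 15 pairs of the 6 genes, the next longest shared run had 12 bases (AGAAAAGAGAGA, in SMXL3 and SMXL5) and the others 8 to 10. The last 10 letters, CTCTATAGCC, occurred on either strand before 9 genes in 250 bases and before 24 in 1000 bases. Of the other 7 genes among those 9, 5 passed the filter. Their log2 differences between GR244DO and solvent were -0.02 to 0.17 at 2 h and -0.03 to 0.21 at 4 h, and none was called. Over all genes tested, 1.3% were called at 2 h and 8.93% at 4 h, so no call among 5 genes is near those shares. The run was looked for after the responses were known, and it is a description of letters, not of a binding site.

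The levels of the 6 genes differed widely. SMAX1 was the highest of the 6 in 15 of 15 libraries, at 53.2 to 96.8 RPKM, and its mean stood at percentile 90.6 of the genes tested. SMXL3 and then SMXL4 were lowest in 15 of 15 libraries, at 1.89 to 3.77 and 1.81 to 3.10 RPKM, at percentiles 18.5 and 13.8. SMXL2, KUF1 and SMXL5 lay between, at percentiles 61.2, 62.0 and 52.5, and changed places. SMXL2 was above SMXL5 in all libraries of 0 h and 2 h and in those of GR244DO at 4 h, but below SMXL5 in the 3 solvent libraries of 4 h. KUF1 was above SMXL2 in the 6 libraries of 4 h and below it in the 6 libraries of 2 h.

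**Figure D1:**
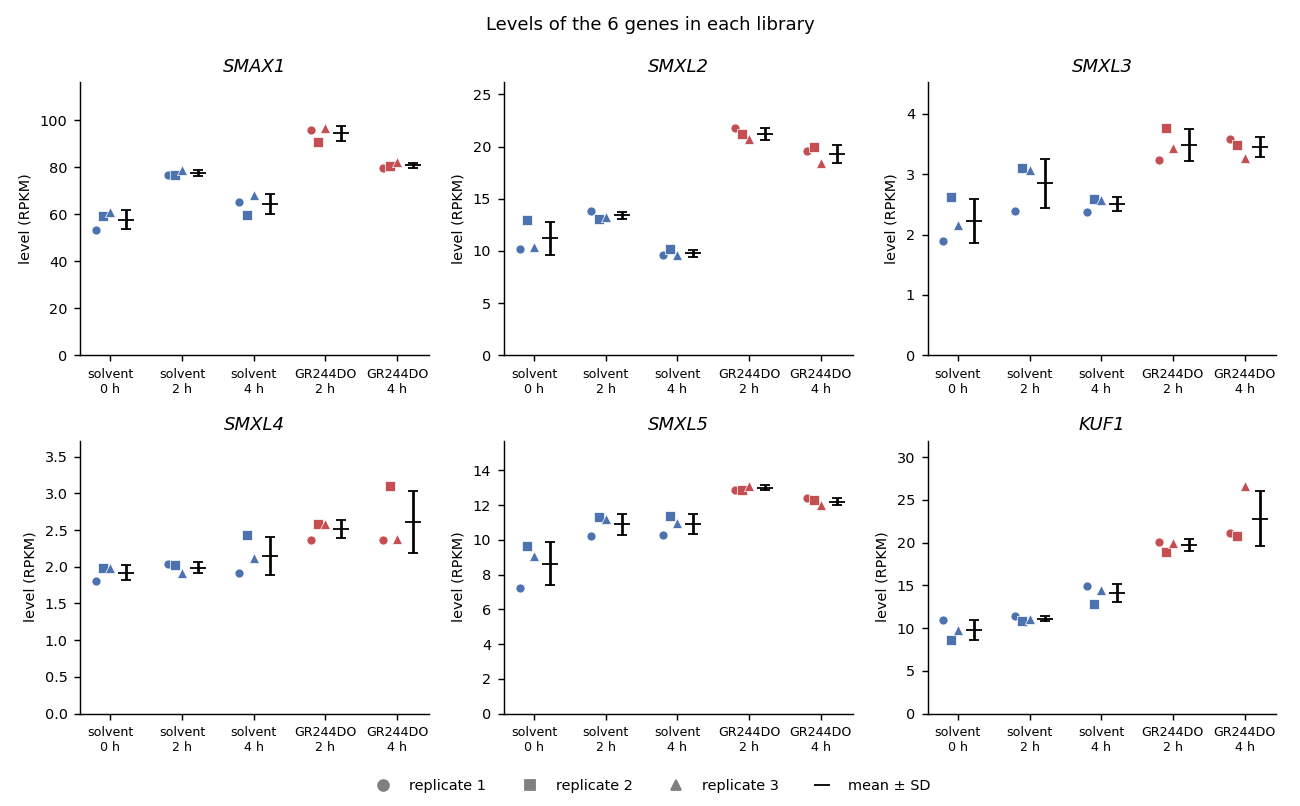
Level of each gene in RPKM (vertical axis, linear, from 0) in each of the 15 libraries, by group; points are libraries, with the shape giving the replicate number, and bars are the mean ± SD of 3 libraries. The gaps between GR244DO libraries and solvent libraries of any time are widest for SMXL2 and KUF1, while SMXL4 overlaps with solvent at 4 h. The share of all genes tested with such gaps was not counted.

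SMAX1 encodes the main repressor of the KAI2 pathway in seeds and seedlings. Its level was 53.2, 59.2 and 60.8 RPKM in solvent at 0 h, 76.6, 76.8 and 78.8 RPKM in solvent at 2 h, and 65.2, 59.8 and 68.2 RPKM in solvent at 4 h. With GR244DO it was 95.8, 90.8 and 96.8 RPKM at 2 h and 79.8, 80.4 and 82.1 RPKM at 4 h. The treated libraries of both times were above every solvent library, with 79.8 against 78.8 RPKM at the narrowest, and the highest level of all was that of GR244DO at 2 h. The mean was 1.22-fold that of solvent at 2 h (94.5 ± 3.2 against 77.4 ± 1.26 RPKM, SD, n = 3 and 3). The log2 difference was 0.28 (95% interval 0.16 to 0.41, limma adjusted p = 0.0281). At 4 h it was 1.25-fold (80.8 ± 1.23 against 64.4 ± 4.25 RPKM), with a log2 difference of 0.32 (0.20 to 0.45, adjusted p = 0.00249). In RNA of whole seedlings, more or fewer cells of a type and more or less RNA per cell cannot be told apart, for this gene and those below. The call at 2 h was lost whichever of the 6 libraries of that time was left out (adjusted p of 0.0615 to 0.14), with median-of-ratios scaling (0.149), with only the groups compared in the fit (0.0681) and with the near-identical pairs averaged (0.166).

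SMAX1 is a long transcript, and the median difference of long genes was above that of all genes. The 1144 tested genes with recovered lengths of 2797 to 3571 bases, the range of the 5 repressor genes, had a median log2 difference of 0.13 at 2 h and 0.14 at 4 h, against 0.06 and 0.02 over all genes tested. Their middle 95% ran from -0.09 to 0.39 at 2 h and from -0.11 to 0.42 at 4 h, and the values of SMAX1 lie inside both ranges. With each library's trend with gene length removed, the log2 difference of SMAX1 was 0.15 at 2 h (limma adjusted p = 0.323) and 0.18 at 4 h (0.182), so that neither was called. With the replicate block added as well, the difference at 4 h was called and that at 2 h was not (0.111).

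SMXL2 encodes the closest relative of SMAX1 and acts with it in seedling growth. Its level was 10.2, 13.0 and 10.4 RPKM in solvent at 0 h, 13.8, 13.1 and 13.3 RPKM in solvent at 2 h, and 9.59, 10.2 and 9.60 RPKM in solvent at 4 h. With GR244DO it was 21.8, 21.2 and 20.7 RPKM at 2 h and 19.6, 20.0 and 18.4 RPKM at 4 h. Every treated library was above every solvent library of any time. The mean was 1.58-fold that of solvent at 2 h (log2 difference 0.63, 95% interval 0.46 to 0.79, limma adjusted p = 0.000472) and 1.98-fold at 4 h (0.91, 0.75 to 1.08, adjusted p = 1.57e-06). Both values lie above the middle 95% of genes of like length. With the length trend removed the log2 differences were still called, and over all the alternatives the log2 difference ran from 0.49 to 0.66 at 2 h and from 0.77 to 0.98 at 4 h. Among all 19155 genes its log2 difference was the 43rd highest at 2 h and the 37th highest at 4 h.

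The 95% intervals of SMXL2 and SMAX1 did not overlap at either time, the response of SMXL2 being the larger, though the difference between the genes was not tested. SMXL2 made up 15.3%, 14.6% and 14.4% of the summed RPKM of SMAX1 and SMXL2 in solvent at 2 h, and 18.6%, 18.9% and 17.6% with GR244DO. At 4 h the shares were 12.8%, 14.5% and 12.4% in solvent and 19.7%, 19.9% and 18.3% with GR244DO. In solvent at 0 h they were 16.1%, 18.0% and 14.6%. The groups did not overlap at either time, but the share is formed from the same values as the responses above and is given as a description. SMAX1 remained the more abundant transcript in each of the 15 libraries. By summed level the pair was at 89.9 to 92.1 RPKM in solvent at 2 h and 112 to 118 RPKM with GR244DO. At 4 h the sums were 70.0 to 77.8 and 99.3 to 101 RPKM.

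**Figure D2:**
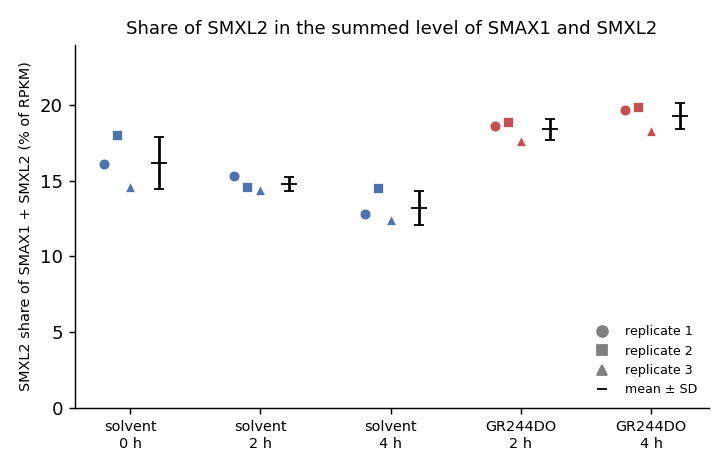
Share of SMXL2 in the summed RPKM of SMAX1 and SMXL2, in percent (vertical axis, from 0), for each library by group; points are libraries and bars are the mean ± SD of 3 libraries. The means are 14.8% and 13.2% in solvent at 2 h and 4 h, and 18.4% and 19.3% with GR244DO.

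SMXL3, SMXL4 and SMXL5 encode the phloem members of the family. SMXL3 was at 1.89, 2.62 and 2.16 RPKM in solvent at 0 h, 2.39, 3.10 and 3.07 at 2 h, and 2.38, 2.59 and 2.57 at 4 h. With GR244DO it was at 3.24, 3.77 and 3.44 RPKM at 2 h and 3.59, 3.48 and 3.27 RPKM at 4 h. Every treated library was above every solvent library, by a narrow gap at 2 h. The mean was 1.22-fold that of solvent at 2 h (log2 difference 0.22, 95% interval 0.02 to 0.43, limma adjusted p = 0.242, not called) and 1.37-fold at 4 h (0.34, 0.14 to 0.55, adjusted p = 0.0385). The call at 4 h was lost whichever of the 6 libraries of that time was left out, and without GR244DO 2 h replicate 3 (adjusted p of 0.0502 to 0.14). It also ended with no filter (0.0539), with the length trend removed (0.22, adjusted p = 0.0545) and with the near-identical pairs averaged (0.315). With the length trend removed and the replicate block together, the call was kept.

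SMXL4 was at 1.81, 1.98 and 1.98 RPKM in solvent at 0 h, 2.04, 2.02 and 1.91 at 2 h, and 1.91, 2.43 and 2.12 at 4 h. With GR244DO it was at 2.37, 2.58 and 2.59 RPKM at 2 h and 2.36, 3.10 and 2.38 RPKM at 4 h. Treated and solvent libraries overlapped at 4 h, where replicate 2 was highest in both groups, and not at 2 h. Neither difference was called. The log2 difference was 0.23 at 2 h (95% interval 0.04 to 0.43, limma adjusted p = 0.206) and 0.19 at 4 h (-0.00 to 0.39, adjusted p = 0.209), so responses from near 0 to about the size seen for SMXL3 lie inside the intervals.

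SMXL5 was the most abundant of the 3 phloem genes. It was at 7.23, 9.64 and 9.05 RPKM in solvent at 0 h, 10.2, 11.3 and 11.2 at 2 h, and 10.3, 11.4 and 11.0 at 4 h. With GR244DO it was at 12.9, 12.9 and 13.1 RPKM at 2 h and 12.4, 12.3 and 12.0 RPKM at 4 h. All treated libraries were above all solvent libraries, but the gaps were small, and neither difference was called (log2 difference 0.23, 95% interval 0.06 to 0.41, limma adjusted p = 0.178 at 2 h, and 0.15, -0.02 to 0.33, adjusted p = 0.271 at 4 h). The 4 h value was -0.01 with the length trend removed. SMXL5 made up 65.0% to 70.6% of the summed RPKM of SMXL3, SMXL4 and SMXL5 in every library, and that sum was 14.6 to 16.4 RPKM in solvent at 2 h and 18.5 to 19.3 RPKM with GR244DO. Like SMAX1, SMXL3, SMXL4 and SMXL5 had log2 differences inside the middle 95% of genes of like length at both times.

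KUF1, the F-box gene of feedback on the KAI2 pathway, was at 10.9, 8.62 and 9.78 RPKM in solvent at 0 h, 11.4, 10.8 and 11.0 RPKM at 2 h, and 14.9, 12.8 and 14.4 RPKM at 4 h. With GR244DO it was at 20.1, 18.9 and 20.0 RPKM at 2 h and 21.1, 20.8 and 26.6 RPKM at 4 h. Every treated library was above every solvent library, and GR244DO 4 h replicate 3 stood above the rest of its group. The mean was 1.78-fold that of solvent at 2 h (log2 difference 0.78, 95% interval 0.58 to 0.98, limma adjusted p = 0.00039) and 1.62-fold at 4 h (0.66, 0.46 to 0.86, adjusted p = 0.000247). Its log2 difference was the 17th highest of 19155 genes at 2 h and the 110th at 4 h. Without GR244DO 4 h replicate 3 the value at 4 h was 0.55. The 3089 tested genes with recovered lengths of 1300 to 1600 bases, around that of KUF1, had median log2 differences of 0.04 and -0.01.

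**Figure D3:**
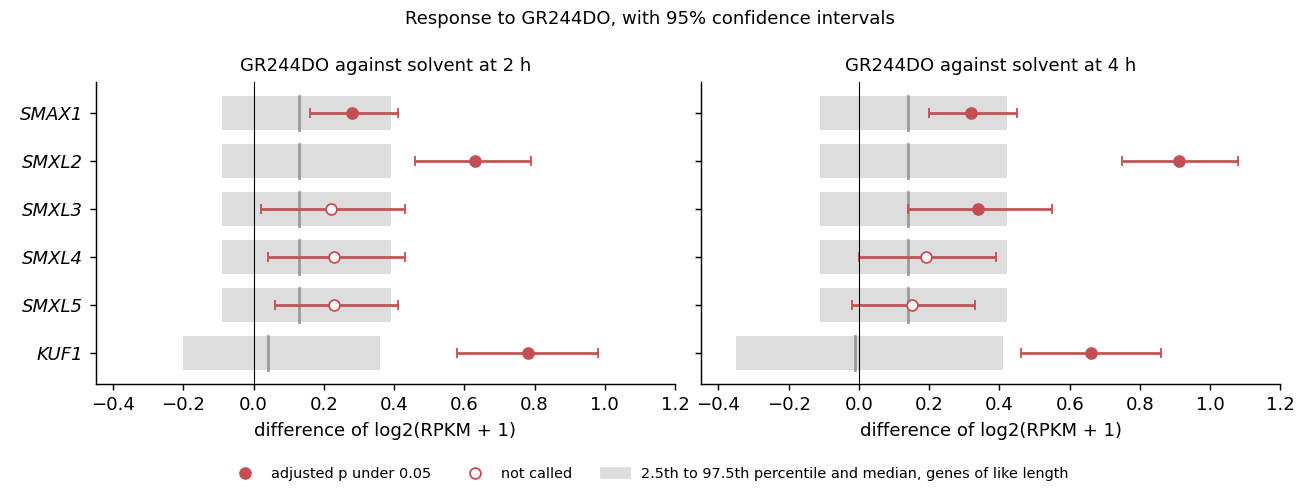
Difference of log2(RPKM + 1) between GR244DO and solvent (horizontal axis) for each gene at 2 h and at 4 h, with 95% intervals from limma; filled points are called and open points are not, and grey bars span the middle 95% of tested genes of like length with their median. SMXL2 and KUF1 lie to the right of the grey bars at both times and the other 4 genes lie within them.

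By count, 3 of the 6 genes were called at 2 h, all higher (SMAX1, SMXL2 and KUF1), where 1.3% of all genes tested were called and 0.887% were called higher. At 4 h, 4 of 6 were called, all higher (also SMXL3), where 8.93% of all genes were called, 4.69% higher and 4.23% lower. The 3 treated libraries were all above the 3 solvent libraries for 6 of 6 genes at 2 h and for 5 of 6 at 4 h, as they were for 19.3% and 17.5% of all genes tested. They were all below for 6.89% and 16% of all genes and for none of the 6. With replicate number as a block over all 15 libraries, the same genes were called among the 6, while the calls among all genes at 2 h went from 249 to 1025. Same-numbered libraries deviated together at 2 h, but at 4 h the numbers do not pair the libraries. With the block and only the 2 h groups in the fit, SMAX1 was not called (limma adjusted p = 0.0557). Some markers of root and shoot moved as well. At 2 h the shoot markers FAMA and SPCH, genes of stomatal development, were called higher (log2 differences 0.30 and 0.47, limma adjusted p = 0.0383 for each), and at 4 h the root auxin carrier gene PIN2 (0.35, adjusted p = 0.00278). The other shoot markers ran from -0.19 (LHCB1.1) to 0.39 (MYB60) at 2 h and were not called. The other root markers ran from -0.36 (CO2) to 0.02 (PLT1) at 4 h and were not called. The root list's median log2 difference was 0.17 at 2 h, where no root marker was called, and 0.01 at 4 h. The summed RPKM of the 7 root markers was 78.9 to 89.7 in solvent and 94.3 to 97.3 with GR244DO at 2 h, and 91.4 to 102 and 90.1 to 101 at 4 h. That of the 7 shoot markers was 12200 to 12400 and 10900 to 11500 at 2 h, and 9270 to 10700 and 10300 to 11700 at 4 h. RBCS1A made up most of the shoot sum, at means of 11400 and 10400 RPKM at 2 h and 9810 and 10500 RPKM at 4 h. The shoot list's median log2 difference was 0.09 at both times, and at 4 h no shoot marker was called. FAMA was then at 0.15 (limma adjusted p = 0.186) and SPCH at -0.02 (0.916). The part of these shifts in the responses of the 6 genes was not tested. SMXL2 and KUF1 were called at both times under each of the alternatives except a minimum change of 2-fold, which neither reached.

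**Figure D4:**
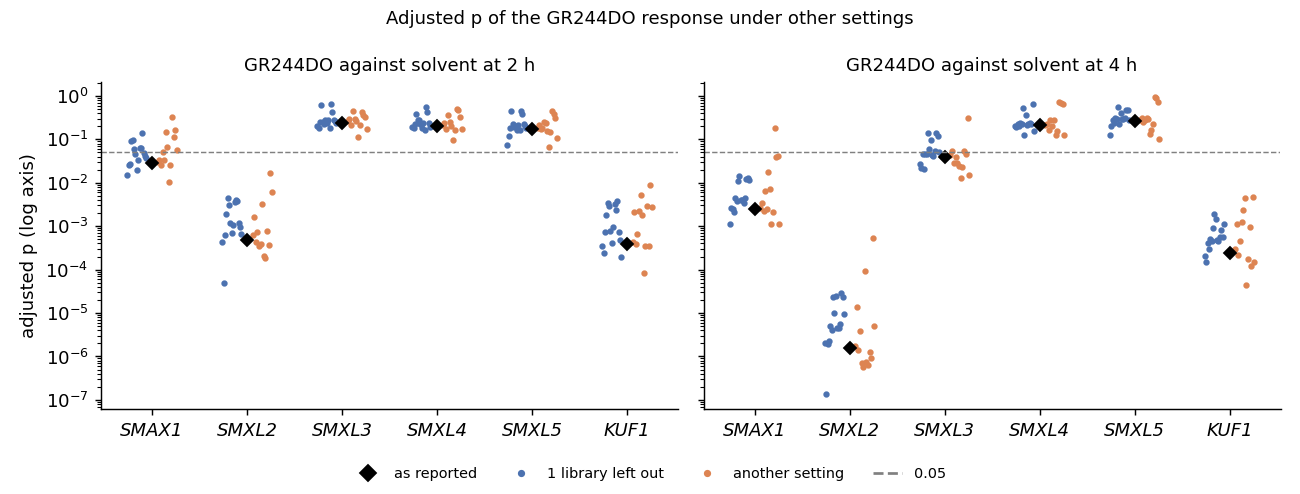
Adjusted p of the difference between GR244DO and solvent at 2 h and 4 h (vertical axis, log scale) for each gene; the black diamond is the value as reported, blue points leave out 1 library each, orange points are the other settings without the minimum fold, and the dashed line is 0.05. SMXL2 and KUF1 stay below the line throughout, SMAX1 at both times and SMXL3 at 4 h lie on both sides of it, SMAX1 at 4 h through the fit with the length trend removed alone, and SMXL4 and SMXL5 stay above it.

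Whether the response changed between 2 h and 4 h was tested directly as a difference of differences. With limma, 0 of the 6 genes were called, where 1.72% of all genes tested were, 0.961% higher and 0.757% lower, and 0 were called with limma-voom on the recovered reads. At an unadjusted p under 0.05 there was 1 gene, SMXL2, whose response was larger at 4 h by 0.29 on the log2 scale (95% interval 0.06 to 0.52, unadjusted p = 0.0175, adjusted p = 0.289). For KUF1 the response at 4 h minus that at 2 h was -0.12 (-0.40 to 0.16, adjusted p = 0.85), and for SMAX1 it was 0.04 (-0.14 to 0.22, adjusted p = 0.94). For SMXL3, SMXL4 and SMXL5 it was 0.12, -0.04 and -0.08, with intervals that hold 0.

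The solvent groups show what the 6 transcripts did over time without the compound. The balancing of 2 h in liquid came before 0 h, so no group precedes the move to liquid. Time in solvent and time of day cannot be told apart here. From 0 h to 2 h, 3 of 6 were called, all higher, where 28.7% of all genes tested were called, 19% higher and 9.66% lower. SMAX1 rose from 57.7 ± 3.98 to 77.4 ± 1.26 RPKM (log2 difference 0.42, limma adjusted p = 7.56e-05), SMXL5 from 8.64 ± 1.25 to 10.9 ± 0.596 RPKM (0.31, adjusted p = 0.0101) and SMXL2 from 11.2 ± 1.58 to 13.4 ± 0.345 RPKM (0.25, adjusted p = 0.0237). The groups of these 3 genes did not overlap, and all 3 libraries of 2 h were above those of 0 h for 24.1% of all genes. The genes of like length had a median of 0.14 here, and with the length trend removed SMAX1 was the 1 gene still called. With the replicate block added as well, SMXL5 was called too. The call of SMXL2 ended without solvent 0 h replicate 1 (adjusted p = 0.104) or 3 (0.0956) or solvent 2 h replicate 1 (0.0559) or 3 (0.0541), and with quantile normalization (0.051) or median-of-ratios scaling (0.0682). The calls of SMXL2 and SMXL5 both ended with only the groups compared (0.117 and 0.0745) and with the near-identical pairs averaged (0.0865 and 0.0703). SMXL3 was at 0.26 (adjusted p = 0.0593), and it was called without solvent 0 h replicate 2 (0.0164) or solvent 2 h replicate 1 (0.0152), with limma-voom on the recovered reads (0.0285), with no variance trend (0.0447) and with the replicate block (0.026).

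From 2 h to 4 h in solvent, SMAX1 and SMXL2 went one way and KUF1 the other. SMAX1 fell by 0.26 (limma adjusted p = 0.00549) and SMXL2 by 0.42 (adjusted p = 0.00115) on the log2 scale, while KUF1 rose by 0.32 (adjusted p = 0.0239). Of all genes tested, 21.3% were called, 11.8% higher and 9.5% lower. The groups of all 3 genes were apart, as they were in the lower direction for 19.2% and in the higher direction for 20% of all genes. SMXL2 at 4 h was also the lowest of its 5 groups, below its libraries of 0 h by a margin smaller than the rounding (10.2 RPKM in each). Genes of like length to the repressors had a median of -0.13. With the length trend removed, the log2 difference was -0.13 for SMAX1 (adjusted p = 0.262) and 0.31 for KUF1 (0.0596), and SMXL2 was still called. With the replicate block added as well, KUF1 was called and SMAX1 was not (0.0866). The call of KUF1 also ended without solvent 2 h replicate 2 (0.0714) or 3 (0.0602) or solvent 4 h replicate 1 (0.103) or 3 (0.0803), with median-of-ratios scaling (0.0556) and with the pairs averaged (0.19). With the pairs averaged SMAX1 was at 0.0501, so its call ended too.

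With GR244DO, the fall of SMXL2 from 2 h to 4 h was small (log2 difference -0.13, 95% interval -0.29 to 0.03, limma adjusted p = 0.262), and its libraries of 4 h were still all below those of 2 h. SMAX1 fell by 0.22 (adjusted p = 0.0173) and was the 1 gene of 6 called, where 18.8% of all genes were, 8.01% higher and 10.8% lower. That call ended without GR244DO 2 h replicate 1 (0.0502) or 3 (0.0713) or GR244DO 4 h replicate 1 (0.0636), with the length trend removed (-0.10, adjusted p = 0.393), with median-of-ratios scaling (0.0895) and with the near-identical pairs averaged (0.0885). KUF1 was at 0.20 (-0.00 to 0.39, adjusted p = 0.161) with all libraries of 4 h above those of 2 h. All 3 libraries of 4 h were above those of 2 h for 17.6% of all genes and below for 23.2%. These comparisons share groups with those above and are not separate evidence.

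The order of the 5 groups by mean is given for each gene as a description, since the share of all genes tested with a like order was not counted. SMAX1, SMXL2, SMXL3 and SMXL5 were highest with GR244DO at 2 h, and SMXL4 and KUF1 with GR244DO at 4 h. For SMXL2 every group was apart from its neighbour in that order, whereas for SMXL4 every neighbouring pair overlapped. For SMAX1 the overlapping neighbours were solvent at 4 h and at 0 h, for SMXL5 they were solvent at 4 h and at 2 h, and for KUF1 solvent at 2 h and at 0 h. For SMXL3 the gap between GR244DO at 4 h and solvent at 2 h was the 1 place where neighbours were apart.

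The genes most like each of the 6 were ranked by Pearson's correlation of log2(RPKM + 1) over the 15 libraries among the other 19154 genes. The libraries share groups, times and scaling, so these are descriptions. SMXL2 was most like SMXL7 (r = 0.982) and SMXL6 (0.962), both strigolactone repressor genes of the same family, and then ABCC2, a vacuolar ABC transporter gene (0.959). SMAX1 was most like TPR1 (0.962), which encodes a TOPLESS-related co-repressor, then DCF (0.951), an acyltransferase gene of cutin, and AT5G12950 (0.949). KUF1 was most like AT1G16500 (0.969), AT3G50640 (0.963) and AT4G25830 (0.956), the last annotated as a CASP-like membrane protein. AT1G16500 was at 8.65 ± 0.289 RPKM in solvent at 2 h and 11.5 ± 0.466 with GR244DO, and at 9.81 ± 0.0595 and 14.2 ± 0.335 RPKM at 4 h. The phloem genes had no phloem marker among their 3 most alike. SMXL3 was most like SWI3C (0.979), a subunit of a chromatin remodelling complex, AT1G27595 (0.974) and AT5G11560 (0.966). SMXL4 was most like AT1G11160 (0.943), the annexin gene ANNAT7 (0.931) and the sphingoid base hydroxylase gene SBH1 (0.923), and SMXL5 was most like the MEI2-like gene ML1 (0.976), EMB2753 (0.971) and AT3G55410 (0.969).

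Among themselves the 6 genes were less alike. The most alike pair was SMXL3 and SMXL5 (r = 0.91), yet SMXL5 ranked 156th among genes like SMXL3, and SMXL3 182nd among genes like SMXL5. SMAX1 and SMXL2 were at 0.86, with SMXL2 ranked 190th for SMAX1 and SMAX1 87th for SMXL2. The member most like KUF1 was SMXL4 (0.74), ranked 698th, and the member most like SMXL4 was SMXL5 (0.74), ranked 757th.

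The other genes of both pathways give a scale for these responses. In a list of 12 receptor, F-box, repressor and co-repressor genes, 4 were called higher and 1 lower at each time. Of all genes tested, 0.887% were called higher and 0.412% lower at 2 h, and 4.69% and 4.23% at 4 h. The list's median log2 difference was 0.12 at 2 h and 0.17 at 4 h, against 0.06 and 0.02 over all genes tested. Those higher were DLK2, a relative of the receptor genes (0.86 at 2 h and 1.74 at 4 h), SMXL6 (0.49 and 0.65), SMXL7 (0.81 and 0.92) and SMXL8 (0.86 and 1.01). SMXL2 at 0.63 and 0.91 thus lay between SMXL6 and SMXL7 at each time. Lower was the receptor gene D14 (-0.33 and -0.30). KAI2 was at 48.8 ± 3.98 RPKM in solvent and 49.0 ± 1.31 RPKM with GR244DO at 2 h, and at 54.0 ± 0.404 and 54.7 ± 2.87 RPKM at 4 h, and was not called. MAX2 was at 18.4 ± 0.696 and 17.0 ± 1.16 RPKM at 2 h and at 18.2 ± 1.2 and 15.7 ± 1.64 RPKM at 4 h, and was not called either. The co-repressor genes TPL and TPR1 to TPR4, whose proteins bind repressors of this family, were not called at either time, at log2 differences of 0.08 to 0.15 at 2 h and 0.11 to 0.25 at 4 h. The calls came from limma with adjustment over all genes, and the alternative settings were run for the 6 genes only.

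In a list of 6 response genes, 4 were tested, since KUOX1 and BRC1 did not pass the filter. BBX20, a B-box factor gene downstream of SMAX1 and SMXL2, rose from 15 ± 1.95 to 31.6 ± 1.42 RPKM at 2 h (log2 difference 1.04, limma adjusted p = 0.000148) and from 12.8 ± 1.15 to 30.1 ± 1.41 RPKM at 4 h (1.17, adjusted p = 4.5e-06). It was the 1 of 4 called at 2 h, and its log2 difference was larger than that of KUF1 at each time, a contrast that was not tested. At 4 h the light-signalling factor gene HY5 was also higher (0.34, adjusted p = 0.0151) and the ethylene synthesis gene ACS7 lower (-0.41, adjusted p = 0.00639).

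Because SMXL3, SMXL4 and SMXL5 act in the phloem, 22 phloem genes were set beside them, of which 19 were tested. At 2 h, 1 was called higher and 1 lower, with a median log2 difference of 0.01, and at 4 h 1 was called, lower, with a median of -0.05. Over all genes tested, 1.3% were called at 2 h and 8.93% at 4 h, so the count at 4 h is near that share. SUC2, the sucrose carrier gene of phloem companion cells, was lower at both times. It was at 65.9 ± 2.28 RPKM in solvent and 48.6 ± 2.76 RPKM with GR244DO at 2 h (log2 difference -0.43, limma adjusted p = 0.00684), and at 49.8 ± 4.07 and 36.2 ± 2.26 RPKM at 4 h (-0.45, adjusted p = 0.000921). CLE45, the gene of a peptide that restrains phloem formation in the root, rose from 0.873 ± 0.0894 to 1.8 ± 0.29 RPKM at 2 h (0.57, adjusted p = 0.0373). The summed RPKM of all 22 was 379 to 390 in solvent and 357 to 373 with GR244DO at 2 h, and 358 to 365 and 327 to 334 at 4 h. The sum rests on a few abundant genes, among them SUC2, while the list's medians are near 0.

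From 0 h to 2 h in solvent, 4 of the 19 phloem genes were called by limma, all higher, with a median log2 difference of 0.08 against 0.07 over all genes. That count is near the share of all genes called higher, 19%. They were SWEET12 (0.70, adjusted p = 6.1e-06) and SWEET11 (0.19, 0.0375), sugar exporter genes, and OPS (0.47, 0.00028) and BAM3 (0.28, 0.0109), genes of early phloem formation. SMXL5 rose and SMXL3 and SMXL4 were not called in the same comparison. From 2 h to 4 h, where 21.3% of all genes were called, 2 were called higher, among them PEAR2, and SUC2, SEOR1 and OBE3 were called lower, while none of SMXL3, SMXL4 and SMXL5 was called.

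Known short sequences were also looked up before the 6 genes. ATAACAA, letters bound by SMXL6 in earlier work, occurs on either strand in 11.6% of the 250-base windows and in 38.5% of the 1000-base windows before the 27443 protein-coding genes. None of the 6 genes held it in 250 bases. In 1000 bases it was found before SMAX1, 730 bases upstream on the antisense strand, and before none of the other 5. CACGTG, the G-box, occurs in 6.49% and 14.8% of these windows, and among the 6 genes it was found once in 1000 bases, 955 bases upstream of SMAX1. That letters are missing from these windows says nothing about the factors that act on the genes.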

How the data were processed

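The deposited table holds RPKM per gene for all 15 libraries. STAR, featureCounts and TAIR10 are named per the submitters' processing notes. Versions, strand and the treatment of multiply mapped reads are not stated in the labels. The table had 1 entry without a gene name, left out. All 347846 values above 0, in 25980 genes, came out as whole reads (100%, within 0.02 reads) after scaling back by length and library, and the depths so found ran from 24.4 to 37.4 M reads, with M for 1000000. Recovered lengths differ from the exon lengths of TAIR10.1, which was used for names, positions and sequences only.

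A gene was tested if it reached 1 RPKM in 3 libraries. The test was limma 3.58.1 (R 4.3.3) on log2(RPKM + 1), as planned for RPKM, in 1 fit of all 15 libraries by group with a variance trend and Benjamini-Hochberg adjustment over 19155 genes. limma-voom on the recovered reads called 239 genes at 2 h and 1758 at 4 h, against 249 and 1710. The steps were tested on simulated data. Tables and sequence searches used Python 3.11.15, numpy 2.4.6 and pandas 2.3.3, and coding sequences were aligned with MAFFT 7.526.

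The 6 genes, the lists and the tests were chosen with earlier results of these data known. All 6 genes were described. Other genes were named by rule: those called in the 2 signalling lists with GR244DO, up to 4 phloem genes with the smallest adjusted p among those called, and the 3 most alike genes of each member with its most alike other member. KAI2, MAX2, TPL, TPR1 to TPR4, FAMA, SPCH and PIN2 were named outside the rule after their values were seen.

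Residuals of same-numbered libraries of GR244DO and solvent correlated at 0.179, 0.133 and 0.101 at 2 h, and those of different numbers at -0.157 to 0.0432. Any pairing at 2 h is thus read from the data and not from the labels. The fit reported did not use it, and the replicate block was run as an alternative.

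Alternatives were other scalings, filters and pseudocounts, no trend, the groups compared alone, a replicate block, recovered reads, the length trend removed, near-identical pairs averaged, a minimum fold and each library left out. The block with the groups compared alone was added after the data were seen.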

Additional observations from a re-analysis of the deposited data

How the results depend on the processing

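Over the 6 genes, the 6 comparisons and all alternatives there were 1026 values, of which 934 kept their direction and their side of the threshold, 68 lost a call, 5 gained one and 19 changed sign. None of the 19 was called in either state. With a minimum change of 2-fold, 0 of the 6 genes were called in each of the comparisons that had calls.

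With the length trend removed, 2 genes were called with GR244DO at 4 h, 1 from 0 h to 2 h in solvent, 1 from 2 h to 4 h in solvent and 0 from 2 h to 4 h with GR244DO; that last count was also 0 with median-of-ratios scaling, with the length trend removed together with the block, and with near-identical pairs averaged. With only the groups compared, 1 was called from 0 h to 2 h. With pairs averaged, 1 was called in each solvent comparison; these fits have 3 fewer samples. Leaving out each library in turn, the 6 genes gave 2 to 3 calls with GR244DO at 2 h, 3 to 4 at 4 h and 0 for the difference of responses. They gave 2 to 4 from 0 h to 2 h and 2 to 3 from 2 h to 4 h in solvent, and 0 to 1 from 2 h to 4 h with GR244DO. The cause of these changes was not tested.

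Signs changed for small values. From 0 h to 2 h, SMXL4 was at -0.02 with quantile normalization and with median-of-ratios scaling, and at -0.10 with the length trend removed, with or without the block. From 2 h to 4 h with GR244DO, SMXL3 was at 0.06 with quantile normalization, 0.02 with median-of-ratios scaling and 0.10 with the length trend removed, with or without the block, and -0.05 to 0.03 with 1 library left out. SMXL5 was at 0.05 there with the length trend removed, with or without the block, and at -0.01 with GR244DO at 4 h. With 1 library left out, SMXL4 ran from -0.06 to 0.08 from 2 h to 4 h with GR244DO. The difference of responses then ran from -0.01 to 0.08 for SMAX1 and from -0.13 to 0.02 for SMXL4.

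Under the replicate block, SMXL3 from 0 h to 2 h gained a call (adjusted p = 0.026), and no other call among the 6 genes changed. At 4 h same-numbered libraries of GR244DO and solvent correlated at -0.183, 0.491 and 0.407. Solvent replicate 1 and GR244DO replicate 3 correlated at 0.403, so libraries also deviated together across numbers, and the numbers do not pair them. Calls among all genes at 4 h went from 1710 to 2747 with the block. With the block and only the groups compared, SMAX1 at 2 h was at 0.0557, SMXL2 from 0 h to 2 h was at 0.0719, and calls among all genes at 2 h and 4 h were 262 and 4203. With near-identical pairs averaged they were 67 and 464, and with a minimum of 2-fold 3 and 38. With 1 library left out they ran from 92 to 321 at 2 h and from 895 to 2175 at 4 h. Depth limits SMXL3 and SMXL4 most, with at most 338 reads in a library.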
